A study of Mus musculus with 10 samples.

Results

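The genes described here are 10 genes of antigen presentation by MHC class II, found by symbol among 55359 gene identifiers in bulk RNA-seq of tumour macrophages. They are the class II chains H2-Aa, H2-Ab1 and H2-Eb1, the invariant chain Cd74, the transactivator Ciita, the peptide editors H2-DMa, H2-DMb1 and H2-DMb2, and the editor's inhibitors H2-Oa and H2-Ob. The list was made by symbol to look at co-variation with Ciita, and earlier results of these data were known when it was chosen. All 10 genes passed the filter on low counts that left 14374 genes for testing. F4/80+ cells were sorted from Braf-mutant melanomas of male mice that were resistant or had rebounded under daily Braf and Mek inhibitors, so every library shares that treatment and no untreated tumour is among them. The 5 control libraries have the genotype Ccr2RFP/+, with 1 RFP allele and 1 intact allele of the chemokine receptor Ccr2, and the 5 knockout libraries have Ccr2RFP/RFP. The titles call the first group WT, but both groups carry an RFP allele. Nothing in the labels ties the libraries to separate mice. Each p-value is therefore a measure of spread among these samples, and that spread may be technical.

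MHC class II molecules are pairs of an alpha and a beta chain that show peptides from engulfed protein to CD4 T cells. The invariant chain fills the groove until the endosome, where H2-DM exchanges its remnant for peptide and H2-O restrains H2-DM. Ciita does not bind DNA itself but is recruited to a set of factors (RFX, NF-Y and CREB proteins) on the X and Y boxes of class II promoters, and interferon gamma is its best known inducer in macrophages.

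Stretches of promoter from 6 of these genes are shown because their letters resemble the X and Y boxes at which Ciita is recruited. The 6 genes did not all vary with Ciita in these libraries. Binding at these sites was not tested. RefSeq promoters on GRCm38.p6 were searched on both strands, in the 250 bases before the start, for CCTAGCAAC with at most 2 mismatches (an X-like motif) followed by ATTGG (the core of a Y box), with first bases 20 to 45 apart. That window was set after these promoters had been seen. Of 10 genes, 7 had an entry and 6 held the pair, which 1.4% of all 32851 promoters hold. The X-like motif alone is in 46.8% of promoters and ATTGG in 33.8%. Capitals mark both motifs, and each stretch is written 5′ to 3′ on the strand of its gene.
H2-Aa, chr17:34287855-34287920, minus strand: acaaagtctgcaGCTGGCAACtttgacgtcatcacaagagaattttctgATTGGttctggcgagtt
H2-Eb1, chr17:34305760-34305824, plus strand: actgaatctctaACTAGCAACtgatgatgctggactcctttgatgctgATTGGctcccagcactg
H2-DMb1, chr17:34153081-34153146, plus strand: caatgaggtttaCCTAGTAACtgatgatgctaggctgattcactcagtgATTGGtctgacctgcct
H2-DMb2, chr17:34145110-34145175, plus strand: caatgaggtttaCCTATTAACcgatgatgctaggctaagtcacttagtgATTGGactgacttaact
H2-Oa, chr17:34092287-34092352, plus strand: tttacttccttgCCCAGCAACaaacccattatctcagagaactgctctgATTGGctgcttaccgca
H2-Ob, chr17:34238802-34238864, plus strand: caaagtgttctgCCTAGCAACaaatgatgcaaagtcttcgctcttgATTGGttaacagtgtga

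Counted from 1 at the 5′ end of CCTAGCAAC, the H2-Aa motif differs by C1G and A4G, H2-Eb1 by C1A, H2-DMb1 by C6T, H2-DMb2 by G5T and C6T, and H2-Oa by T3C, while H2-Ob has no mismatch. The first bases of the motifs lie 34 bases apart in H2-Ob, 36 in H2-Eb1 and 37 in the other 4. The 2 H2-DMa entries do not hold these letters in this window. H2-Ab1, Cd74 and Ciita had no entry.

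The 10 libraries held between 34639808 and 43360206 counts in genes. Ccr2 ran from 59.0 to 177 CPM (library-scaled counts, TMM) in control and from 3.23 to 6.28 CPM in knockout libraries, so each library matched its genotype label. Some libraries were close: the median chi-square per gene was 2.66 between controls 3 and 4 and 2.75 between controls 1 and 2, where sampling noise alone gives 0.455, and the next closest pair stood at 5.71. Summed macrophage markers (8 genes, among them Adgre1, which encodes F4/80) ranged from 21293 to 21665 CPM in control and from 18360 to 28040 CPM in knockout libraries. C1qa, C1qb and C1qc, at control means of 5263, 5680 and 3879 CPM, made up most of the control sum. Of the 8, only Cd68 was called for genotype, higher in knockout (adjusted p = 0.0260 by edgeR), against 0.87% of all genes. In bulk RNA, fewer cells of a type and less RNA per cell cannot be told apart.

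The classical class II chains were low in some knockout libraries and spread widely among them. H2-Ab1, the beta chain of I-A, stood at 2178, 2267, 2136, 1955 and 1216 CPM in controls 1 to 5 and at 164, 1166, 393, 1122 and 696 CPM in knockouts 1 to 5. Every knockout library lay below every control library, although control 5 and knockout 2 came close. The mean was 1950 ± 426 CPM in control and 708 ± 440 CPM in knockout (SD, n = 5 each), and the log2 fold change was -1.46 (standard error 0.45, adjusted p = 0.146, unadjusted p = 0.00760 by edgeR).

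H2-Aa, the I-A alpha chain, stood at 2115, 2115, 2126, 2026 and 1093 CPM in controls and at 121, 1188, 303, 889 and 641 CPM in knockouts. Knockout 2 exceeded control 5, so the groups overlap. Its log2 fold change was -1.59 (standard error 0.50, adjusted p = 0.156 by edgeR). H2-Eb1, the I-E beta chain, was arranged in the same way, at 1774, 1749, 1932, 1783 and 917 CPM in controls and 103, 1083, 279, 768 and 555 CPM in knockouts, and its log2 fold change was -1.55 (standard error 0.51, adjusted p = 0.168 by edgeR). The I-E alpha chain gene H2-Ea, matched here also under the pseudogene name H2-Ea-ps, had 0 to 5 counts and was at 0 in 7 libraries.

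Cd74, the chaperone that occupies new class II dimers, was the most abundant of the 10 genes. It stood at 3762, 3811, 4003, 3949 and 2333 CPM in controls and at 242, 2627, 634, 1953 and 1247 CPM in knockouts, and knockout 2 again exceeded control 5. The log2 fold change was -1.41 (standard error 0.51, adjusted p = 0.210 by edgeR).

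Ciita itself was arranged differently among the controls. It stood at 38.4, 41.0, 86.5, 83.7 and 39.8 CPM in controls 1 to 5 and at 4.94, 38.0, 10.5, 56.3 and 26.5 CPM in knockouts 1 to 5. Controls 3 and 4 were the highest libraries, knockout 4 exceeded the other 3 controls, and knockouts 1 and 3 were lowest. Its log2 fold change of -1.09 had a standard error of 0.56 (edgeR adjusted p = 0.380).

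**Figure D1:**
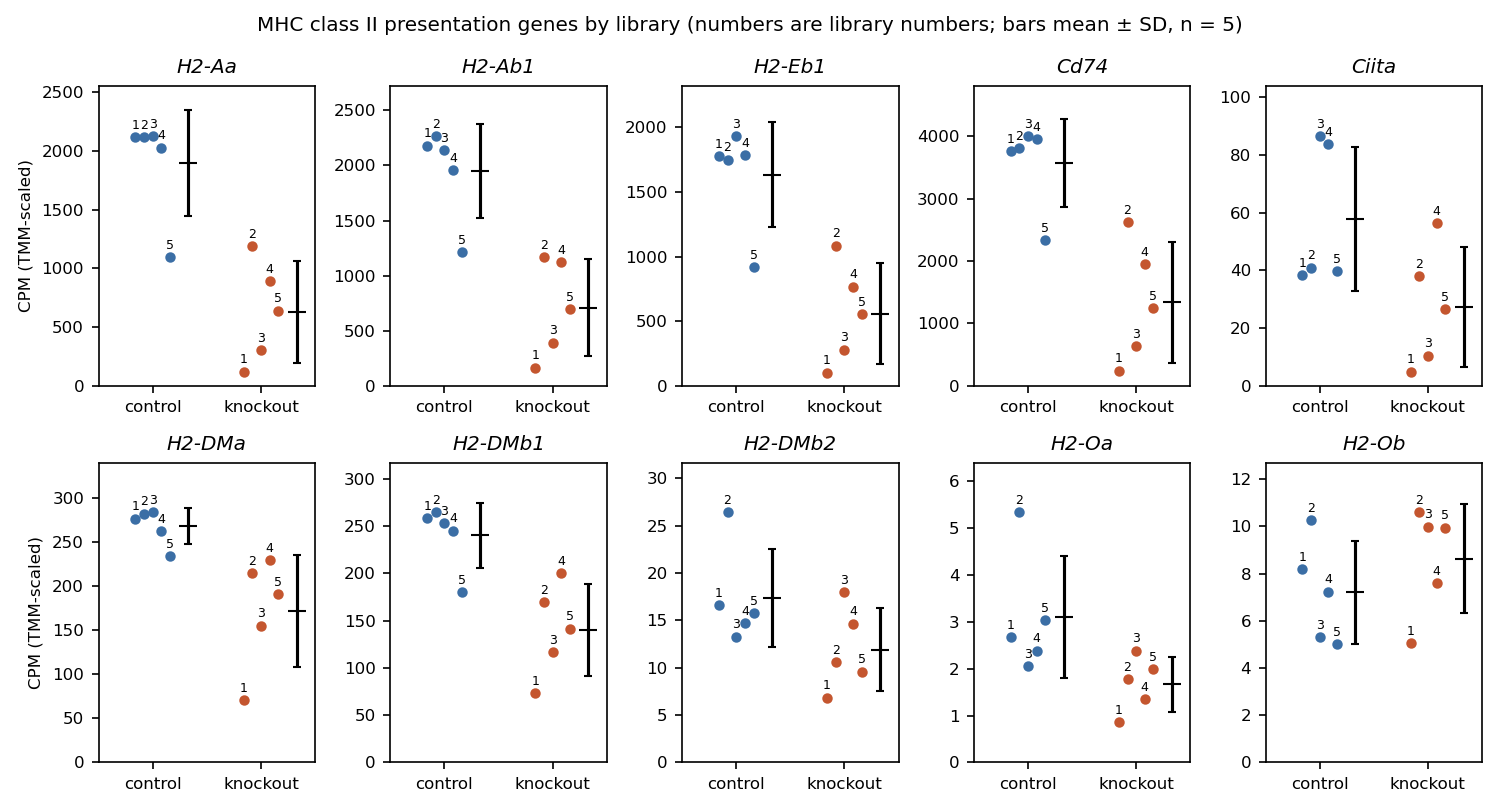
CPM of each of the 10 class II genes in every library, on linear axes that start at 0, with control and Ccr2 knockout libraries side by side and bars for mean ± SD (n = 5). Knockouts 1 and 3 are the lowest libraries for the chains and Cd74, and H2-Ob is the gene with a positive log2 fold change.

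Among the peptide editors, H2-DMa, the alpha chain of H2-DM, ranged from 235 to 284 CPM in control and from 70.6 to 229 CPM in knockout libraries, with no overlap. Its log2 fold change was -0.64 (standard error 0.25, adjusted p = 0.266 by edgeR). H2-DMb1, a beta chain of H2-DM, stood at 258, 264, 253, 245 and 180 CPM in controls and 73.1, 169, 117, 200 and 141 CPM in knockouts. Knockout 4 exceeded control 5, and the log2 fold change was -0.78 (standard error 0.23, adjusted p = 0.139 by edgeR). The second beta chain, H2-DMb2, was far lower, from 13.3 to 26.4 CPM in control and from 6.83 to 17.9 CPM in knockout libraries, and its log2 fold change was -0.54 (standard error 0.27, adjusted p = 0.366 by edgeR). Reads that map to more than 1 place are listed as 0 in these files, so levels of paralogs such as H2-DMb1 and H2-DMb2 are uncertain.

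The inhibitor chains were scarce. H2-Oa ranged from 2.06 to 5.34 CPM in control and from 0.857 to 2.38 CPM in knockout libraries, and the log2 fold change was -0.89 (standard error 0.34, adjusted p = 0.237 by edgeR). H2-Ob, its beta chain partner, ranged from 5.004 to 10.3 CPM in control and from 5.05 to 10.6 CPM in knockout libraries, and its log2 fold change was 0.26 (standard error 0.25, adjusted p = 0.652 by edgeR). H2-Ob was the 1 gene of the 10 with a positive value.

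For genotype, edgeR's quasi-likelihood test called 0 of the 10 genes at an adjusted p of 0.05, where 1.41% of all genes tested were called, 0.543% lower and 0.87% higher in knockout. At an unadjusted p of 0.05, 7 of 10 passed, all lower in knockout, against 7.28% of all genes in that direction. The log2 fold change was negative in 9 of 10 genes and in 50.5% of all genes, and its median was -0.99 over the 10 and -0.0034 over all genes. Libraries of the 2 groups did not overlap for H2-Ab1 and H2-DMa, 2 of 10, against 2.02% of all genes in that direction and 4.7% in either. Other tools called some of them: DESeq2 called Cd74, H2-Aa, H2-Ab1, H2-DMb1 and H2-Eb1, and limma-voom with quality weights called the last 4. Over all genes DESeq2 called 5.7% and limma-voom 3.1%. For H2-Ab1 the adjusted p ran from 0.0142, with DESeq2, to 0.606 over its alternatives.

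**Figure D2:**
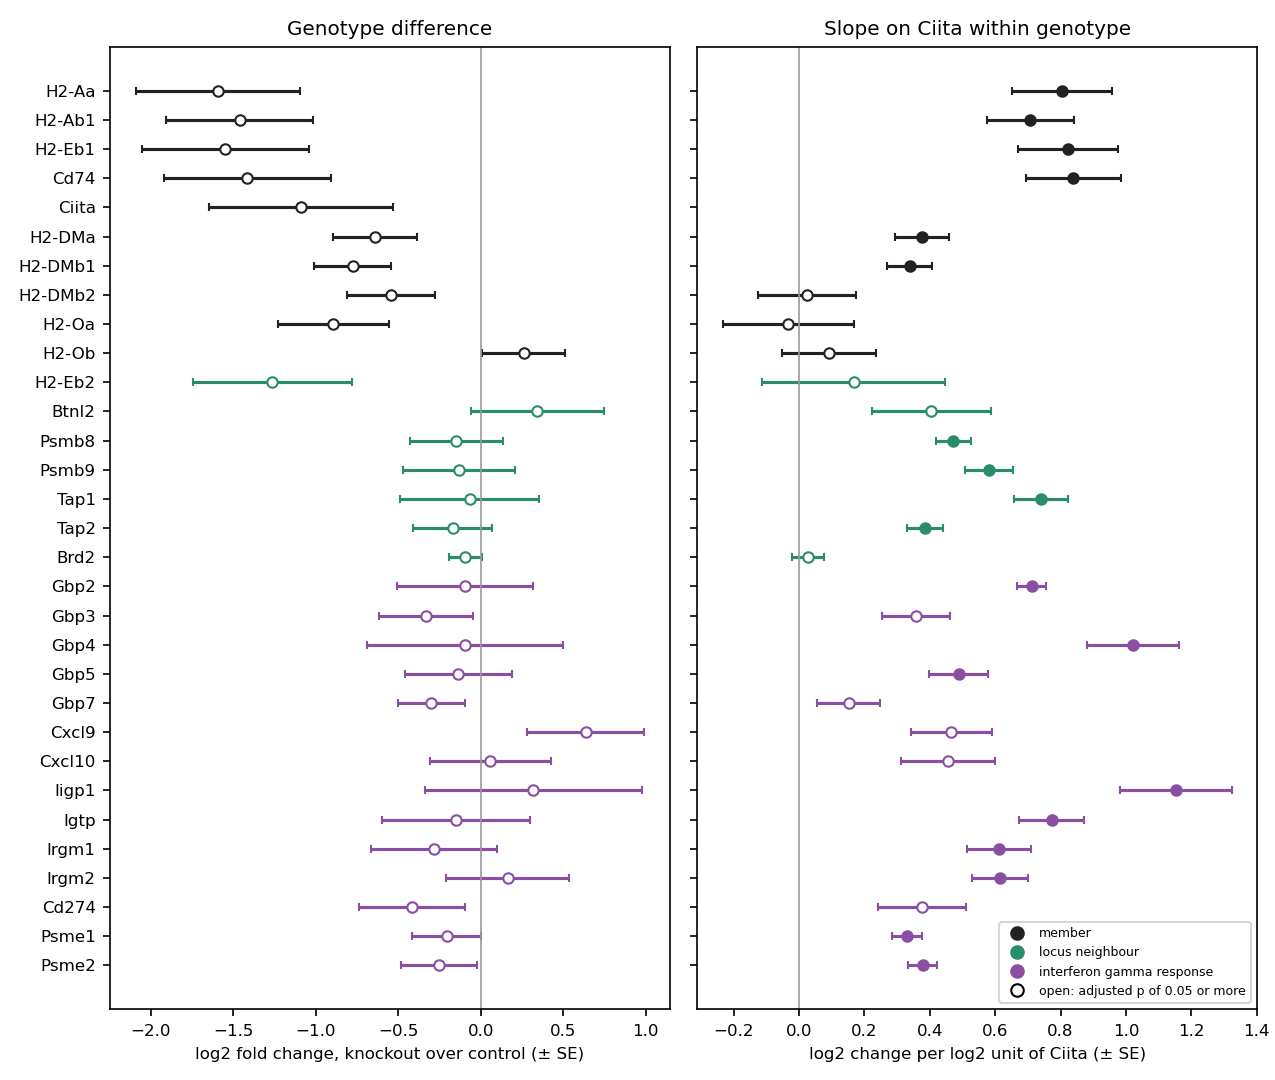
Left, log2 fold change of the class II genes (black), locus neighbours (green) and interferon gamma response genes (purple), knockout over control, and right, their slope on Ciita within genotype, with standard errors from edgeR. Filled points passed an adjusted p of 0.05: none of the genes drawn did for genotype, and 6 of 9 class II genes did for the slope.

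Per kilobase of exon (exon unions of GENCODE M21 on GRCm38, which need not be the models counted), Cd74 led in control at 2127 ± 416 CPM per kb (SD, n = 5). H2-Eb1 followed at 839 ± 209, H2-Ab1 at 760 ± 166 and H2-Aa at 499 ± 119 CPM per kb, and the mean ± SD ranges of neighbours among these 3 overlapped. Those of H2-DMb1 at 143 ± 20.4 and H2-DMa at 77.7 ± 5.95 CPM per kb did not. H2-DMb2 at 9.93 ± 2.98 and Ciita at 6.07 ± 2.61 CPM per kb overlapped, as did H2-Oa at 2.20 ± 0.925 and H2-Ob at 1.34 ± 0.403. In knockout libraries the order differed only in H2-Ob, at 1.60 ± 0.429 CPM per kb, standing above H2-Oa at 1.19 ± 0.418, and their SDs overlapped.

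Libraries of the same genotype were then compared by their Ciita level. The slope is the log2 change in a gene per log2 change in Ciita, with each genotype's mean Ciita removed, so a difference between genotypes does not enter it. Of the 9 other genes, 6 were called by edgeR, all positive, where 2.84% of all genes were called, 1.58% positive and 1.26% negative. The slope was positive in 8 of 9 and in 50.6% of all genes. The slope was 0.84 for Cd74 (standard error 0.14, adjusted p = 0.0189), 0.82 for H2-Eb1 (0.15, adjusted p = 0.0258), 0.80 for H2-Aa (0.15, adjusted p = 0.0278) and 0.71 for H2-Ab1 (0.13, adjusted p = 0.0269). The H2-DM genes were shallower, at 0.38 for H2-DMa (0.08, adjusted p = 0.0435) and 0.34 for H2-DMb1 (0.07, adjusted p = 0.0334). H2-DMb2 at 0.02 (0.15, adjusted p = 0.950), H2-Oa at -0.03 (0.20, adjusted p = 0.950) and H2-Ob at 0.09 (0.14, adjusted p = 0.764) were not called. The median slope was 0.38 over the 9 and 0.0025 over all genes.

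These slopes rest on knockouts 1 and 3, the libraries with the least Ciita. With both left out, a choice made after seeing the data, edgeR called 0 genes of the whole table (6.7% passed an unadjusted 0.05, and 0 of the 9), and the slope was 0.32 for Cd74 (adjusted p = 0.812) and 0.25 for H2-Ab1 (adjusted p = 0.844). Without knockout 1 alone 0 of 9 were called (7 at an unadjusted 0.05, against 16.7% of all genes), and without knockout 3 alone Cd74 and H2-DMa were. Summing controls 1 with 2 and 3 with 4 also left 0 of 9 called (6 at an unadjusted 0.05, against 15.2% of all genes), with a slope of 0.89 and an adjusted p of 0.0620 for Cd74. With all libraries DESeq2 also called 6 of 9, while limma-voom called 0 (6 at an unadjusted 0.05). Over all genes DESeq2 called 11.2% of slopes and limma-voom 3.3%, with 22.8% at an unadjusted 0.05 by limma-voom. Over all alternatives the adjusted p of Cd74 ran from 7.24e-09 to 0.812 and that of H2-Ab1 from 5.67e-07 to 0.844.

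The correlation of deviations from the genotype means had the same division. Pearson's r with Ciita over 10 libraries was 0.91 for Cd74 (Spearman's rho 0.94), 0.90 for H2-Eb1 (0.89), 0.89 for H2-Ab1 (0.75), 0.89 for H2-Aa (0.84), 0.88 for H2-DMb1 (0.71) and 0.86 for H2-DMa (0.85). Exact permutation within genotype over 14400 arrangements gave unadjusted p from 0.00535 for Cd74 to 0.0117 for H2-Aa, and 6 of 9 genes passed 0.05, where 16.4% of all genes passed and 8.59% passed with a positive r. An r of at least 0.85 was reached by these 6 and by 2.4% of all genes. After adjustment over 14373 genes the smallest value among the 9 was 0.165, and 0 genes of the whole table passed. H2-Ob had r = 0.28 (permutation p = 0.505), H2-DMb2 0.16 (p = 0.731) and H2-Oa 0.06 (p = 0.889). Without knockouts 1 and 3, r was 0.51 for Cd74 and between 0.42 and 0.51 for the other 5 high genes, and -0.70 for H2-Oa, so the relation rests on those libraries.

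**Figure D3:**
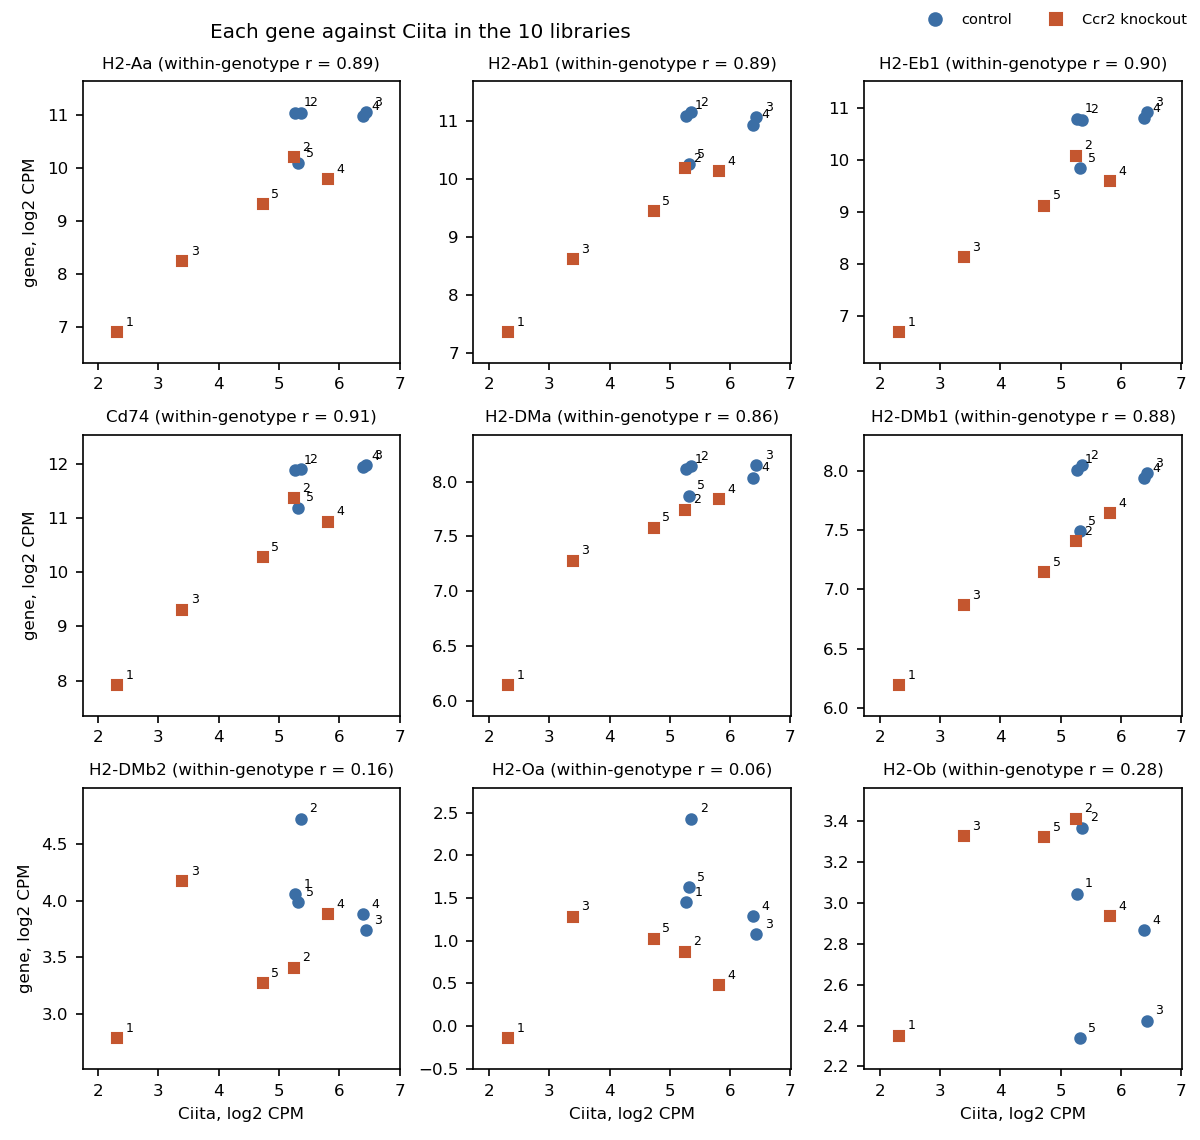
Log2 CPM of each gene against log2 CPM of Ciita, 1 point per library, numbered by replicate. Knockouts 1 and 3 lie at the lower left in the panels of the 6 genes with r from 0.86 to 0.91, and controls 3 and 4 lie to the right of controls 1 and 2 at about the same height.

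Within each genotype alone, slopes of Cd74 and the class II chains were higher in knockout libraries, though no difference passed adjustment. In knockout libraries the slope was 0.95 for Cd74 (standard error 0.13), 0.93 for H2-Eb1 (0.15), 0.92 for H2-Aa (0.14) and 0.82 for H2-Ab1 (0.11), and in control libraries 0.24 (0.26), 0.30 (0.30), 0.20 (0.29) and 0.11 (0.24) in the same order. The difference, knockout minus control, was 0.71 for H2-Ab1 (edgeR unadjusted p = 0.0256, adjusted p = 0.796) and 0.71 for Cd74 (unadjusted p = 0.0388, adjusted p = 0.830). By edgeR, the 1 tool run for it, 0 genes of the table passed adjustment, while 2 of 9 class II genes and 5.82% of all genes passed an unadjusted 0.05. Ciita spanned a wider range in the knockout libraries than in the controls.

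By the same measure of r, the genes most like Ciita over the 10 libraries were Gbp2 (0.99), Gsdmd (0.98), Nudt19 (0.98), Sdf2l1 (0.98), Nod1 (0.97), Trafd1 (0.97), Sdc3 (0.97), Psme2 (0.97), Psmb10 (0.97) and Evl (0.96). Gbp2, a guanylate binding protein induced by interferon, stood at 174, 153, 302, 289 and 166 CPM in controls and 67.8, 305, 101, 333 and 208 CPM in knockouts. It was high in controls 3 and 4 as Ciita was, whereas H2-Eb1 there, at 1932 and 1783 CPM, was little above the 1774 and 1749 CPM of controls 1 and 2. Its slope was 0.76 (standard error 0.11) in control and 0.70 (0.05) in knockout libraries, and its log2 fold change for genotype was -0.10 (edgeR adjusted p = 0.932).

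**Figure D4:**
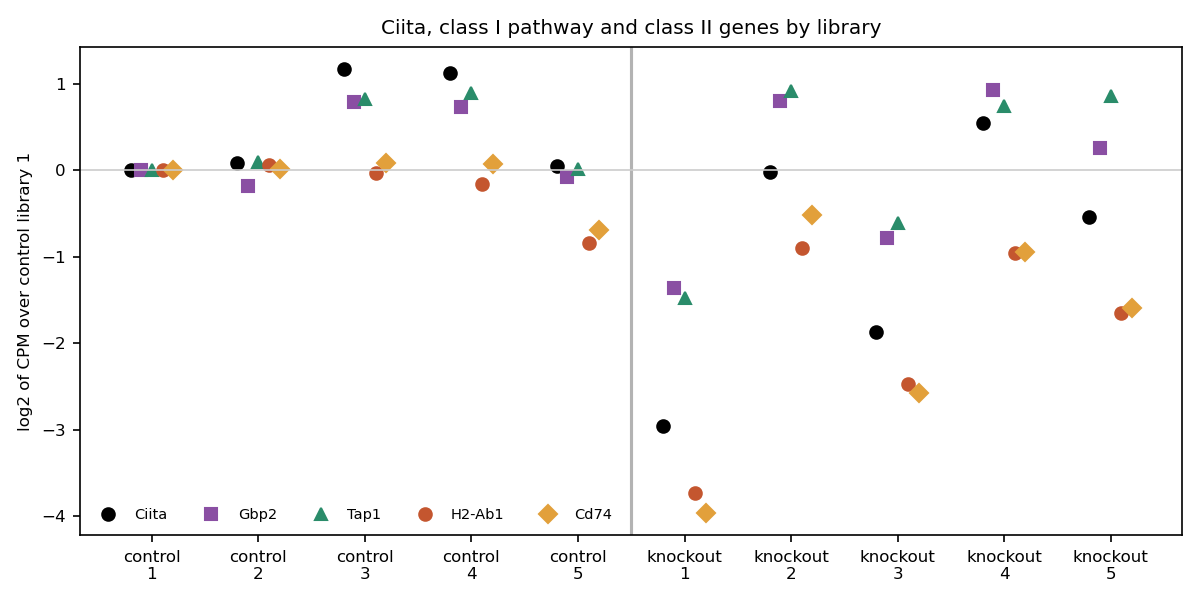
CPM of Ciita, Gbp2, Tap1, H2-Ab1 and Cd74 in each library, as log2 of the ratio to control 1. In controls 3 and 4, Ciita, Gbp2 and Tap1 stand well above the other controls, while Cd74 is at 4003 and 3949 CPM against 3762 and 3811 CPM in controls 1 and 2, and H2-Ab1 is below both of those.

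At equal Ciita level, with Ciita uncentred as a covariate (added after seeing the data), edgeR called 0 of 9 genes for genotype, where 2.82% of all genes were called and 23.1% passed an unadjusted 0.05. At an unadjusted 0.05, 4 of the 9 passed: H2-Ab1, H2-Aa, H2-DMb1 and H2-Eb1. H2-Ab1 had a log2 fold change of -0.77 (standard error 0.28, adjusted p = 0.150) and H2-Aa -0.81 (adjusted p = 0.172). H2-Eb1 had -0.73 (adjusted p = 0.209) and H2-DMb1 -0.37 (adjusted p = 0.205). Cd74 at -0.61 (adjusted p = 0.254) and H2-DMa at -0.19 (adjusted p = 0.551) did not pass the unadjusted 0.05 either. No other tool was run for this value.

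Ratios of counts within a library do not depend on scaling. The log2 ratio of H2-DMa to H2-Ab1 was -2.98, -3.00, -2.91, -2.90 and -2.37 in controls and -1.22, -2.44, -1.34, -2.29 and -1.86 in knockouts. Knockouts 1 and 3 had the highest ratios and knockout 2 lay below control 5. The difference of 1.002 had an exact two-sided permutation p of 0.0159 over 252 arrangements, adjusted over 6 ratios to 0.0952. The other 5 ratios (H2-Aa, H2-Eb1 and Cd74 to H2-Ab1, H2-Ab1 to Ciita, and H2-DMa to H2-Oa) differed by between -0.29 and 0.15, with adjusted exact permutation p from 0.286 to 0.675.

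**Figure D5:**
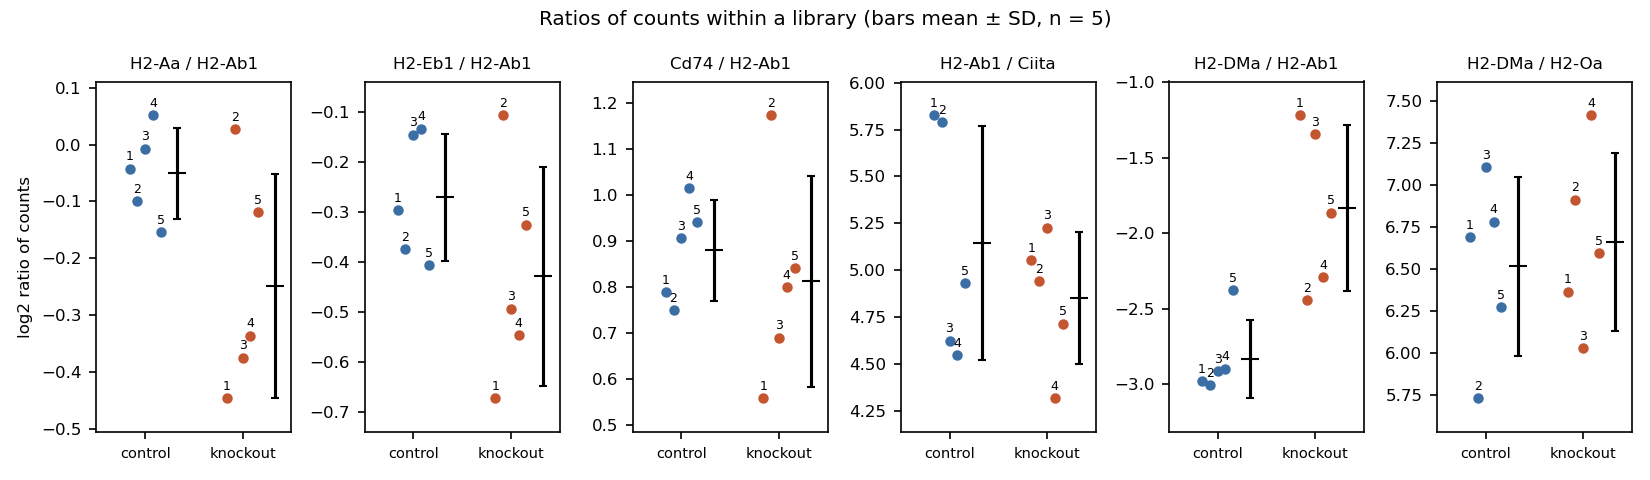
Log2 ratios of counts within each library for the 6 gene pairs, control beside knockout, numbered by replicate, with bars for mean ± SD (n = 5). The H2-DMa to H2-Ab1 ratio averaged -2.83 in control and -1.83 in knockout libraries, the widest gap of the 6.

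Other genes of the pathway were read from lists, for genotype and for the slope on Ciita. Among genes that neighbour or resemble the class II genes in the locus, 0 of 7 tested were called for genotype by edgeR (1 at an unadjusted 0.05, 0 by DESeq2 and by limma-voom). The slope was positive in 7 of 7 and called in 4: Psmb8 (0.47) and Psmb9 (0.58), subunits of the immunoproteasome, and Tap1 (0.74) and Tap2 (0.39), the peptide transporter of class I presentation. The class II paralog H2-Eb2 was near the floor, with 7 to 48 counts. Of 8 factors that bind class II promoters, 0 were called by edgeR for genotype (0 at an unadjusted 0.05, 0 by both other tools) or for the slope (3 at an unadjusted 0.05, 1 by DESeq2, 0 by limma-voom). Rfx5 had a slope of 0.17 (edgeR adjusted p = 0.0971).

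A called positive slope was found in 1.58% of all genes by edgeR. Among 15 genes that induce or repress Ciita, 5 had a called positive slope, among them Nlrc5 (0.56), Socs1 (0.47), Irf8 (0.36) and Irf1 (0.32). Ifng itself had 1 to 88 counts, and its slope of 0.31 (standard error 0.61, adjusted p = 0.816 by edgeR) was not called. Its within-genotype r with Ciita was -0.08 (exact permutation p = 0.864). Of 14 tested interferon gamma response genes, 9 had a called positive slope, among them Iigp1 (1.15), Gbp4 (1.02) and Igtp (0.77). Their median log2 fold change for genotype was -0.14, and 0 of them were called for it by edgeR, by DESeq2, by limma-voom or at an unadjusted 0.05. Of 10 endosomal proteases and related genes, Ctsh (0.28) and Ctsz (0.18) had called slopes by edgeR, while limma-voom called 0 and DESeq2 3 in that list. Of 7 tested costimulatory genes, Cd40 (0.47) and Icosl (0.23) had called slopes, and limma-voom called 2 and DESeq2 3. Of 8 genes of class II turnover and traffic, 0 were called by edgeR for genotype (3 at an unadjusted 0.05, 2 by DESeq2, 1 by limma-voom) or for the slope (0 at an unadjusted 0.05 and 0 by both other tools). With knockouts 1 and 3 left out edgeR called none of these slopes, and the values moved by unequal amounts. The slope was then 0.72 for Gbp2, 0.59 for Nlrc5, 0.51 for Tap1, 0.38 for Cd40 and 0.32 for Psmb8 (adjusted p = 0.734 for each by edgeR). It was 0.17 for Socs1 (adjusted p = 0.874), 0.16 for Irf8 (adjusted p = 0.807) and 0.10 for Ctsh (adjusted p = 0.833). Their r without those libraries was 0.97 for Gbp2, 0.83 for Psmb8, 0.82 for Cd40, 0.78 for Tap1 and 0.76 for Nlrc5. For Irf8 it was 0.57, for Ctsh 0.55 and for Socs1 0.37, where the 6 class II genes had 0.42 to 0.51. These examples were chosen after their values were seen.

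Cell type markers moved in part with these genes. Of 7 monocyte markers, edgeR called 5 lower in knockout, Ccr2 itself among them, against 0.543% of all genes. Of the 7, 6 had a negative log2 fold change, and the median was -3.97. For the slope on Ciita, edgeR called 0 of the 7, and DESeq2 and limma-voom called 2 each. Over all genes these tools called 2.84%, 11.2% and 3.3% of slopes. Of 12 dendritic cell markers, 10 had a negative log2 fold change and 1, Dpp4, was called lower, against 50.5% and 0.543% of all genes. Their summed level ran from 50.2 to 91.5 CPM in control and from 25.1 to 67.2 CPM in knockout libraries, and none was at 0 in any library. Batf3, a dendritic cell transcription factor, had a called slope on Ciita of 0.63 (edgeR adjusted p = 0.0430), but 5 of the 12 had a positive slope, the median was -0.09, Flt3 was at -0.72 (unadjusted p = 0.0306 by edgeR), and limma-voom called 0. Of 9 B cell markers 3 were tested, and Cd79b had a called slope of 0.45 (edgeR adjusted p = 0.0479). Its partner Cd79a had a slope of -0.59 (unadjusted p = 0.0205, adjusted p = 0.160 by edgeR) and limma-voom called 0 of the 3, while Pax5 was at 0 in 4 libraries. Summed B cell markers ran from 150 to 379 CPM in control and from 68.1 to 540 CPM in knockout libraries. Ighm, at means of 198 CPM in control and 216 CPM in knockout, made up most of both sums. The neutrophil genes S100a8 (-2.37) and S100a9 (-2.85) had called negative slopes, 2 of 6 neutrophil markers tested. The summed level of the 7 listed ran from 162 to 510 CPM in control and from 115 to 209 CPM in knockout libraries. Csf3r, at means of 162 CPM in control and 110 CPM in knockout, made up most of the knockout sum. S100a8 and S100a9 averaged 9.87 and 18.3 CPM in knockout libraries. Of 8 macrophage markers, 1, Fcgr1, had a called slope on Ciita (0.28, adjusted p = 0.0196 by edgeR), while DESeq2 called 4 and limma-voom 1. The part of any of these cells in the class II values was not tested.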

How the data were processed

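Per the labels' protocols, sorted F4/80+ cells gave poly(A)-enriched, strand-specific libraries. STAR and GRCm39 are named in the submitters' processing notes. The aligner's version and the gene models were not given in the sources used here.

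Deposited files hold whole-number read counts per gene, and the reverse-strand column, which held 96.2% to 96.5% of strand-assigned counts, was used. Between 6.87% and 8.07% of reads were unmapped, 3.63% to 5.68% met no gene and 1.83% to 2.1% were ambiguous, and these stayed out of library sizes and tests. A combined table with 10 unnamed columns was not used.

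Genes were tested with edgeR 4.0.16 (R 4.3.3) by the quasi-likelihood test after filterByExpr (minimum count 10) and TMM, with Benjamini-Hochberg adjustment over all genes and a threshold of 0.05. Log2 CPM used a prior count of 2. Ciita entered as its log2 CPM minus its genotype mean. Permutation tests within genotype and of ratios were exact, r over uncentred values used 100000 permutations, and the tests were tested on simulated data. Named genes were the 10 class II genes, Ccr2, the 10 genes most like Ciita above a mean of 2 CPM, and from each list those called or with the smallest p; some of these are not reported here. The genes and lists were chosen with earlier results of these data known. Alternatives were DESeq2 1.42.0 and its size factors, limma 3.58.1 (voom), no composition factor, no filter, unstranded counts, close libraries summed, a replicate block, each library left out, and for r another prior count, ranks and uncentred values. Figures used matplotlib.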

Additional observations from a re-analysis of the deposited data

Results flagged for a closer look

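In 6 of 32 groups of 5 libraries (20 of CPM and 12 of ratios), 1 library lay apart from the other 4 by Dixon's criterion, where chance gives about 5% of groups. Of the 6, 5 concern control 5, in genes that vary together. Control 5 was the low library for H2-Aa at 1093 CPM, H2-Eb1 at 917 CPM, Cd74 at 2333 CPM and H2-DMb1 at 180 CPM, and the high one for the log2 ratio of H2-DMa to H2-Ab1 at -2.37. Control 2 was the high library for H2-DMb2 at 26.4 CPM. H2-DMa also had counts on the strand opposite to the gene in every library, from 293 to 439, where the other 9 genes did not pass a share of 1% in all libraries; Brd2 lies on that strand and overlaps H2-DMa in GENCODE M21.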

How the results depend on the processing

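The direction of the genotype value was kept for all 10 genes in 209 alternative values, 9 of which passed the threshold by DESeq2 or limma-voom. Of 180 alternative slopes, 113 kept direction and side of the threshold, 51 lost the call and 16 changed sign; of 189 values of r the numbers were 149, 26 and 14.

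Genes called for genotype numbered 203. There were 29 with close control pairs summed, 8 with knockouts 4 and 5 also summed, 820 by DESeq2, 446 by limma-voom and 62 to 267 with 1 library left out. Genes called for the slope numbered 408. There were 32 with close control pairs summed, 152 with knockouts 4 and 5 also summed, 1613 by DESeq2, 475 by limma-voom, 127 to 549 with 1 library left out, and 0 without knockouts 1 and 3. For the slope difference the count was 0, and 0 to 1 with 1 library left out, the 1 arising without control 5.

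The labels do not say whether replicate numbers pair the libraries. Correlations of same-numbered deviations ran from -0.53 to 0.34, too few and too varied to decide it. With the number as a replicate block, 55 genes were called for genotype and 0 for the slope, and the H2-DMb2 slope was -0.15.

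The genes without a called slope had no stable sign. The H2-DMb2 slope was -0.0052 with no composition factor, -0.19 by limma-voom and -0.12 without knockouts 1 and 3. The H2-Oa slope was 0.0165 with close pairs summed and 0.0742 with knockouts 4 and 5 also summed. The H2-Ob slope was -0.0536 by limma-voom and -0.31 without knockouts 1 and 3. For r, H2-Oa had -0.0030 with no composition factor, -0.20 with unstranded counts, -0.0788 by ranks and -0.70 without knockouts 1 and 3; H2-DMb2 had -0.0545 by ranks and -0.18, and H2-Ob -0.43, without them. With 1 library left out, slopes ran from -0.24 to 0.17 for H2-DMb2, -0.41 to 0.0932 for H2-Oa and -0.16 to 0.17 for H2-Ob, and r from -0.49 to 0.44, -0.70 to 0.23 and -0.36 to 0.41. The ratio of H2-DMa to H2-Oa ran from -0.0507 to 0.31, that of H2-Aa to H2-Ab1 from -0.27 to -0.15 and that of H2-DMa to H2-Ab1 from 0.85 to 1.15; the last 2 had an adjusted exact permutation p of 0.0476 in 1 fit each, without knockout 2. The cause was not tested. Counts were lowest for H2-Oa, at 0.857 to 5.34 CPM.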
